A study of Mus musculus with 8 samples.

Results

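Sfrp5 and 7 other secreted antagonists of Wnt signalling were compared between white adipose tissue of wildtype mice and of mice that lacked Sel1l in adipocytes. The genes were Sfrp5, Sfrp1, Sfrp2, Sfrp4, Frzb, Wif1, Dkk2 and Dkk3, 8 of 18820 genes measured, each read by 1 probe set. For each gene the brightest probe set that carries that gene alone was read. The set was drawn up around Sfrp5 because of its large fall between the genotypes, so the differences of these 8 genes between genotypes are descriptions here and carry no test. RNA was profiled on 8 arrays, 1 per mouse, from male C57BL/6 mice (C57BL/6N and C57BL/6J mixed) kept on high fat feed for 5 weeks, both genotypes alike. In 4 of them floxed Sel1l had been removed by a Cre driven from the adiponectin promoter, so in adipocytes, and these are called Sel1l-/- as in the labels. The other 4 were wildtype (WT). Whether WT mice carried the floxed allele or the Cre, the age of the mice and the fat depot are unknown here.

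Wnt proteins are secreted signals that bind Frizzled receptors at the cell surface. With the coreceptors Lrp5 and Lrp6 they stabilise β-catenin, which acts on target genes with TCF and LEF factors, and through other branches they act on the planar polarity genes and the kinase JNK. Secreted frizzled-related proteins (Sfrp1, Sfrp2, Sfrp4, Sfrp5 and Frzb) carry a domain like the Wnt-binding part of Frizzled and hold Wnt proteins in the extracellular space, as Wif1 does with an unrelated domain. Dkk2 acts on Lrp5 and Lrp6, and Dkk3 is a relative that does not clearly share this action. In adipose tissue Wnt signalling through β-catenin is known to hold back adipogenesis, and Sfrp5 is an adipokine known for binding Wnt5a and for transcript levels that differ widely between mice on a high fat diet.

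All values are log2 probe set intensities, so a difference of 1 is a doubling. Array medians lay at 6.05 to 6.08 for WT and at 6.10 to 6.14 for Sel1l-/- mice, and the 8 arrays correlated at 0.982 to 0.994 over all probe sets. Sel1l itself was lower, with WT at 10.57 ± 0.07 and Sel1l-/- at 9.78 ± 0.21 (SD, n = 4 each), without overlap. Adipocyte markers were bright on all arrays, with list means of 12.51 to 12.75 in WT and 12.23 to 12.60 in Sel1l-/- mice over 9 genes. Markers of skeletal muscle and epididymis had list means of 5.01 to 5.20 and 3.83 to 4.04. In whole tissue, fewer cells of a type and less RNA per cell cannot be told apart.

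The promoter of Sfrp5 is shown because this is the antagonist with the large difference, and that of Sfrp2 because it had the next largest. Each window runs from 250 bases before to 50 bases after the gene's start, from RefSeq on GRCm38.p6, where 5 of the 8 genes had an entry (Sfrp5, Sfrp2, Frzb, Wif1 and Dkk2; Sfrp1, Sfrp4 and Dkk3 did not). Sfrp5 lies at chr19:42202203-42202502 on the minus strand and Sfrp2 at chr3:83766071-83766370 on the plus strand. Capitals mark any match, on either strand, to 7 motifs given after the sequences.
Sfrp5: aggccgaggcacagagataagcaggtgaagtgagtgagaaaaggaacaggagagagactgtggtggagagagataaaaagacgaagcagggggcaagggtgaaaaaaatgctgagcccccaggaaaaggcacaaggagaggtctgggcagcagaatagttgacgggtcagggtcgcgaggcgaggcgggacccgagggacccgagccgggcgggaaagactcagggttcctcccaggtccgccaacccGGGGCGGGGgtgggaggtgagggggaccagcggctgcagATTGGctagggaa
Sfrp2: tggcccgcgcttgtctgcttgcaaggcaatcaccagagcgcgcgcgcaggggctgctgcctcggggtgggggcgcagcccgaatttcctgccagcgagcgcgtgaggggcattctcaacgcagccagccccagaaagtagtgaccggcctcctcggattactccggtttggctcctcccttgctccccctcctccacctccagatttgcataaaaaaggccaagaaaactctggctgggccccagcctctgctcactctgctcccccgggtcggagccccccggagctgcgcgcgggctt

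The Sfrp5 window held the GC box GGGGCGGGG, which starts 2 bases before the start of the gene, and CCAAT on the other strand from base 38 after it. These letters were found in 11.4% and 37.4% of all 32851 windows. It held no match to the TCF/LEF core CTTTGA (16.0% of windows), the unfolded protein response element TGACGTG (2.01%), the ER stress response element (0.119%, a longer motif that begins with the CCAAT box), the CHOP-ATF4 element TGATGCAA (0.895%) or TATAAA (13.6%). The Sfrp2 window held none of the 7 motifs. Frzb held CTTTGA on the other strand, Wif1 a GC box and TATAAA, and Dkk2 CCAAT and TATAAA. The share of G and C was 61.3% for Sfrp5 and 66.0% for Sfrp2, against a median of 52.7% over all windows. A match describes letters in this window only.

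Sfrp5 was far lower in Sel1l-/- adipose tissue. The 4 WT mice, numbered as in their titles, read 10.27, 10.93, 11.61 and 10.84, and the 4 Sel1l-/- mice 6.67, 8.34, 8.83 and 6.91. All Sel1l-/- mice lay below all WT mice, with a gap of 1.45 between the highest of one group and the lowest of the other, and Sel1l-/- 1 and 4 lay well below Sel1l-/- 2 and 3. The means were 10.91 ± 0.55 and 7.69 ± 1.06 (SD, n = 4 each), a log2 difference of -3.23 (standard error 0.50), or 9.38-fold lower. Of all genes, 5.07% had Sel1l-/- arrays wholly below the WT arrays and 5.22% had them wholly above.

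Over all genes, the difference of Sfrp5 was the second largest fall. Rnase2a, a ribonuclease, had a log2 difference of -3.25 (standard error 1.28), but its groups overlapped. Next after Sfrp5 came Fgf13, a fibroblast growth factor homologue that stays inside the cell, at -2.88, and Opn3, a non-visual opsin, at -2.08.

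Sfrp5 was also one of the most variable transcripts between mice of the same genotype. Its SD within genotypes, pooled over both groups, was 0.84, at percentile 99.5 of all genes, where the median gene had 0.13. The Sel1l-/- mice spanned 2.15 log2 units and the WT mice 1.34. Mice with the same number in their titles took similar places in their groups. Number 1 was lowest and number 3 highest in both genotypes, and the 4 differences between same-numbered mice were -3.60, -2.59, -2.79 and -3.94. The mouse codes in the labels hold another number, whose meaning is not given. Within code number 5 (WT 1, WT 4 and Sel1l-/- 3) the difference was -1.73, within 7 (WT 2, Sel1l-/- 1 and Sel1l-/- 4) it was -4.14, and within 9 (WT 3 and Sel1l-/- 2) it was -3.28. The size of the difference thus ranged widely with the code number. Its sign was negative in all 3, which follows from groups that do not overlap. Within letter F of the code, the 1 letter with both genotypes, the difference was -3.34.

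**Figure D1:**
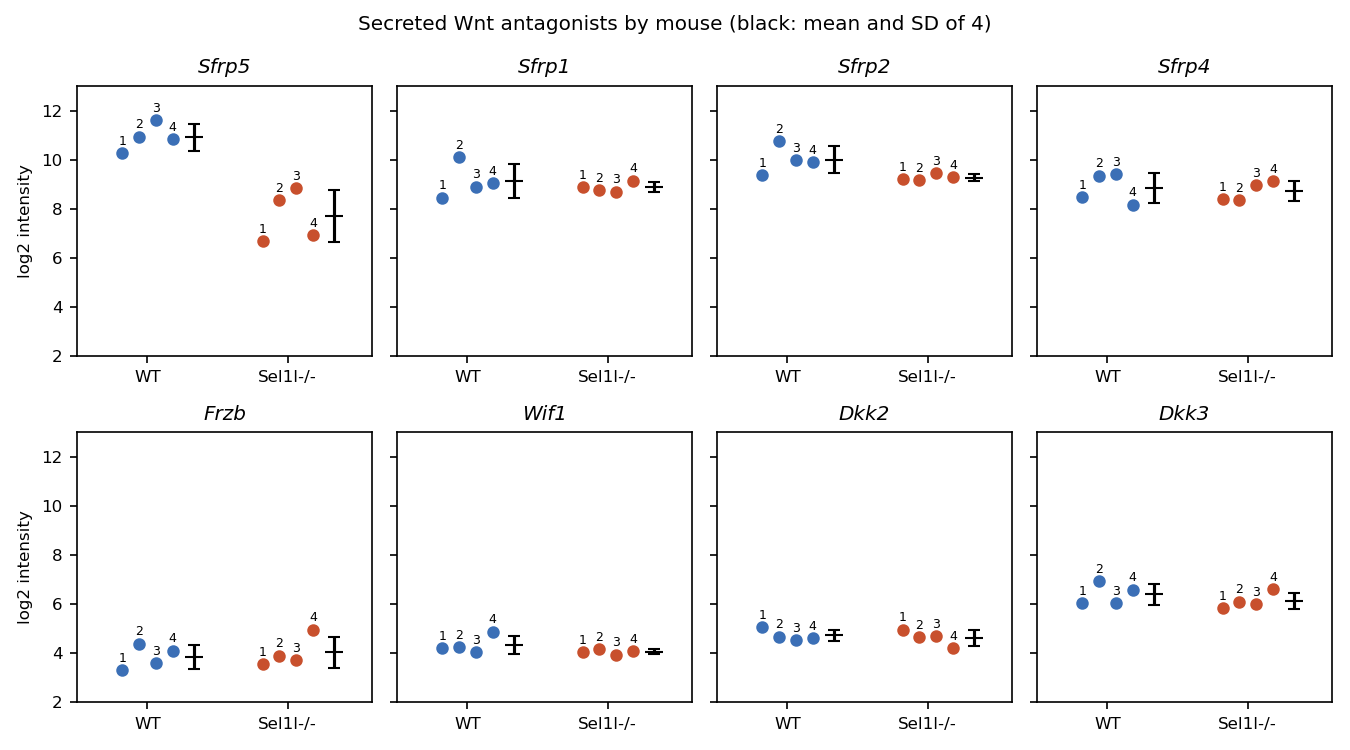
Log2 intensity of the 8 antagonists in each mouse (blue WT, red Sel1l-/-; small digits are the mouse numbers), with the mean and SD of 4 mice in black. Sfrp5 is the one panel in which the groups do not overlap, with WT at 10.27 to 11.61 and Sel1l-/- at 6.67 to 8.83.

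Among the other frizzled-related proteins, Sfrp2 had the largest difference. WT mice read 9.37, 10.74, 9.99 and 9.90, and Sel1l-/- mice 9.20, 9.15, 9.46 and 9.28. The groups overlapped through WT 1, which lay below Sel1l-/- 3, while WT 2 stood highest. The log2 difference was -0.73 (standard error 0.25), or 1.66-fold lower, and -0.48 without WT 2. Within code numbers 5, 7 and 9 it was -0.18, -1.51 and -0.84. The WT mice spread over 1.37 log2 units and the Sel1l-/- mice over 0.31.

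Sfrp1, of the same branch of the family as Sfrp5 and Sfrp2, read 8.45, 10.10, 8.90 and 9.04 in WT and 8.89, 8.76, 8.69 and 9.14 in Sel1l-/- mice. WT 2 stood more than 1 log2 unit above the other mice of its group, and the other 3 WT mice overlapped the Sel1l-/- mice. The difference of -0.25 (standard error 0.31) became 0.07 without WT 2. Sfrp4, of the other branch of the family, read 8.46, 9.35, 9.40 and 8.17 in WT and 8.40, 8.34, 8.96 and 9.13 in Sel1l-/- mice. Its difference was -0.14 (standard error 0.31), and it was 0.03 without WT 2 and 0.05 without WT 3. Frzb, also of that branch, was dim, with 6 of 8 arrays under the array's lower quartile of all probe sets (4.33 to 4.37), and is not shown to be above background. It ranged from 3.31 to 4.40 in WT and from 3.57 to 4.97 in Sel1l-/- mice, a difference of 0.19 (standard error 0.34).

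Of the antagonists of other families, Wif1 lay under the lower quartile on 7 of 8 arrays, at 4.04 to 4.88 in WT and 3.95 to 4.16 in Sel1l-/- mice (difference -0.28, standard error 0.16). Dkk2 lay near that quartile, at 4.55 to 5.08 and 4.20 to 4.96 (difference -0.10, standard error 0.17). At this signal the differences of both genes are hard to tell from background. Dkk3 lay above that quartile on all arrays and read 6.05, 6.93, 6.05 and 6.59 in WT and 5.85, 6.10, 6.00 and 6.61 in Sel1l-/- mice. The highest mouse was again WT 2, and the groups overlapped. The Dkk3 difference was -0.26 (standard error 0.23), and -0.09 without WT 2.

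Of the 8 antagonists, 7 had a negative difference, as did 51.2% of all genes, and the median over the 8 was -0.26 against -0.0037 over all genes. Leaving out Sfrp5, the median of the other 7 was -0.25. Past an adjusted p of 0.05 in limma was 1 of the 8, Sfrp5, where 0.685% of all genes passed and were lower and 1.04% passed and were higher. At an unadjusted p of 0.05 it was 2 of the 8, Sfrp5 and Sfrp2, both lower, where 7.85% of all genes were lower and 7.15% higher. Since the set was chosen from this contrast, nothing is read from these counts. The first was 0 without WT 1, WT 2 or WT 3, with the code letter or the code number blocked, and without moderation of the variances. The groups did not overlap for 1 of the 8, again Sfrp5, and for 10.3% of all genes in either direction.

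**Figure D2:**
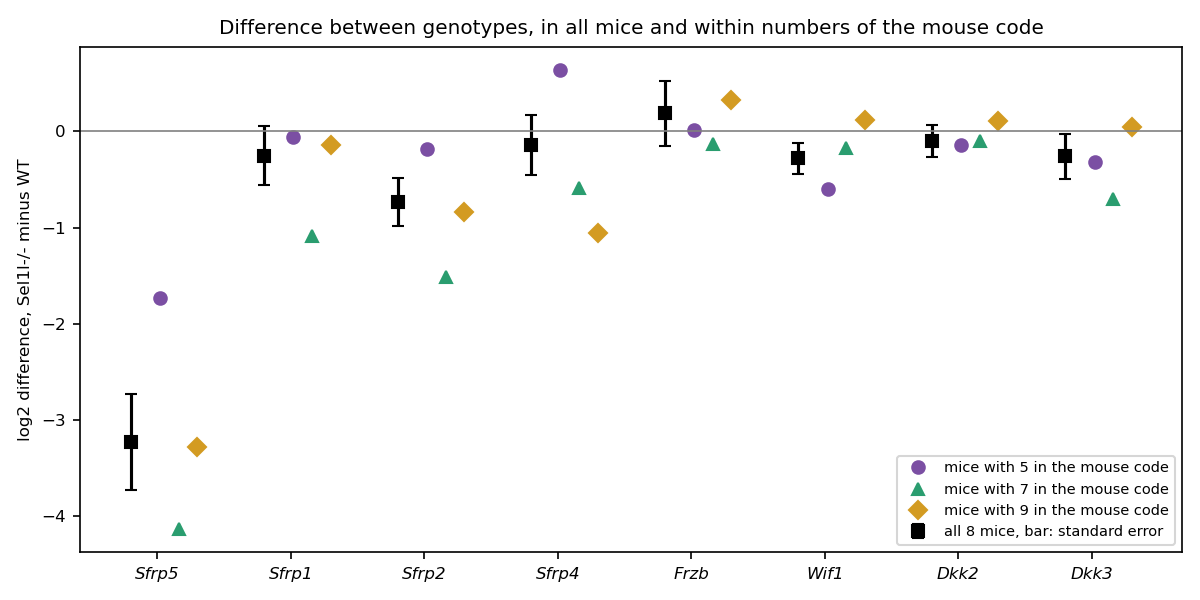
Log2 difference of each antagonist, Sel1l-/- minus WT, over all 8 mice (black squares, standard error as bar) and within the mice that share a number in the mouse code (coloured points, 2 or 3 mice each). Sfrp5 lies between -1.73 and -4.14 in all 3 numbers, whereas Sfrp4 runs from 0.64 to -1.06 around 0.

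The other antagonists were also compared with Sfrp5 from mouse to mouse. Taking each mouse's deviation from the mean of its genotype, a measure that leaves out the difference between genotypes, Pearson correlations with Sfrp5 over the 8 mice were -0.19 to 0.29 for the 7 genes. These values rested on single mice, since leaving out 1 mouse took Sfrp2 to 0.55 (without WT 2), Sfrp4 up to 0.53, Frzb down to -0.54 and Dkk2 down to -0.77. The correlations are descriptions. All genes share the same arrays, and the 8 deviations may not be independent, since same-numbered mice of both genotypes tended to deviate together, number 2 least. Sfrp1 and Sfrp2 varied with each other (r = 0.90, and 0.59 without WT 2), and Sfrp1 with Dkk3 (0.81, and 0.71 without WT 2). WT 2 was the highest of the 4 WT mice for 4 of the 8 antagonists (Sfrp1, Sfrp2, Frzb and Dkk3), where it was highest of the 4 for 17.9% of all genes. The 11 measured markers of adipocyte progenitors and fibroblasts had their highest list mean in WT 2, at 10.40, against 10.08 to 10.21 in the other WT mice and 9.88 to 10.30 in Sel1l-/- mice, and none of them lay under the lower quartile on all arrays. The 7 measured lymphocyte markers also had their highest list mean in WT 2, at 6.75. It was 6.05 to 6.38 in the other WT mice and 5.81 to 6.50 in Sel1l-/- mice. The part of these cell types in the levels of Sfrp1, Sfrp2 and Dkk3 was not tested.

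Genes whose deviations followed those of Sfrp5 most closely were sought among 1133 genes whose mean over all arrays was above the median of all genes and that had an SD within genotypes of at least 0.3. Of these, 18 had r over 0.7 and 7 had r under -0.7. With so few mice, unrelated genes can also reach such values, and how many would was not worked out. Neither count is thus shown to exceed chance. The genes named here and below were picked by the rank of r, so their correlations with Sfrp5 are descriptions. The 10 highest were C1qtnf1 (r = 0.82), a secreted C1q and TNF related protein, Ifit1 (0.80), an interferon-induced protein, Stk26 (0.78), a kinase, Wnt2b (0.78), a Wnt ligand, Mfsd13a (0.78), Elk1 (0.78), a transcription factor, Cacna1e (0.75), a calcium channel subunit, BC023105 (0.74), Irf7 (0.74), an interferon regulatory factor, and Dpp4 (0.73), a cell-surface peptidase of adipocyte progenitors. None of the 10 passed the threshold between genotypes (limma adjusted p from 0.156 for Stk26 to 0.901 for Elk1). The choice of these 10 moved with the mice used, since 1 to 7 of them stayed among the 10 highest when 1 mouse was left out.

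The 5 lowest correlations were those of Morn4 (r = -0.93), a MORN repeat protein, Snord14e (-0.91), a small nucleolar RNA, Gdpd3 (-0.85), a lysophospholipase D, Cytl1 (-0.80), a secreted cytokine-like protein, and Gadd45g (-0.79), a stress-response protein. Morn4 read 8.53, 7.62, 6.74 and 8.25 in WT and 8.25, 7.0, 6.23 and 7.72 in Sel1l-/- mice. Mouse 3 was the lowest and mouse 1 the highest in both genotypes, the reverse of Sfrp5, and r stayed between -0.96 and -0.89 when any 1 mouse was left out. The genotypes overlapped widely for Morn4 (difference -0.48, standard error 0.50, limma adjusted p = 0.718, but 0.0304 with the replicate number as a block).

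Morn4 lies on the same chromosome as Sfrp5, with 4 measured protein-coding genes between them in the order of the RefSeq table. None of the nearest genes passed the threshold, and their differences were far smaller than that of Sfrp5. On one side, Zfyve27 had a difference of -0.01 (standard error 0.06, limma adjusted p = 0.979) and Marveld1 of -0.20 (0.06, adjusted p = 0.142). On the other, Golga7b had -0.15 (standard error 0.23, adjusted p = 0.818) and R3hcc1l -0.09 (0.10, adjusted p = 0.743). The 2 genes on each side were chosen by position after the data had been seen.

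Mest, an imprinted gene of the hydrolase family whose transcript is known to rise with fat mass and to vary with Sfrp5 in mice on a high fat diet, fell as well. WT mice read 12.42, 12.56, 12.58 and 12.87 and Sel1l-/- mice 11.73, 11.79, 11.97 and 11.56. No Sel1l-/- mouse reached the lowest WT mouse. The fall was 1.79-fold (log2 scale -0.84 with standard error 0.12; adjusted p = 0.0124 in limma). The call was lost without Sel1l-/- 2 (adjusted p = 0.0502), without moderation of the variances (0.061) and with the mouse code's number as a block (0.0776). It was also lost with the letter as a block, which rests on 1 WT and 2 Sel1l-/- mice, where the difference was -1.11. Bmp3, a bone morphogenetic protein also known to vary with Sfrp5, followed it within genotypes (r = 0.73, and 0.65 to 0.97 when 1 mouse was left out) but had a difference of -0.21 (standard error 0.26, adjusted p = 0.772). Within genotypes Mest had r = 0.59 with Sfrp5 (0.36 to 0.84 when 1 mouse was left out). Of the 5 genes listed as known from fat expansion (Mest, Bmp3, Npr3, Cav1 and Cavin1), Mest was the 1 past the threshold. Over all genes, 0.685% passed and were lower. All 5 had negative differences, against 51.2% of all genes, but those of Npr3, Cav1 and Cavin1 were small (-0.06, -0.05 and -0.15).

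**Figure D3:**
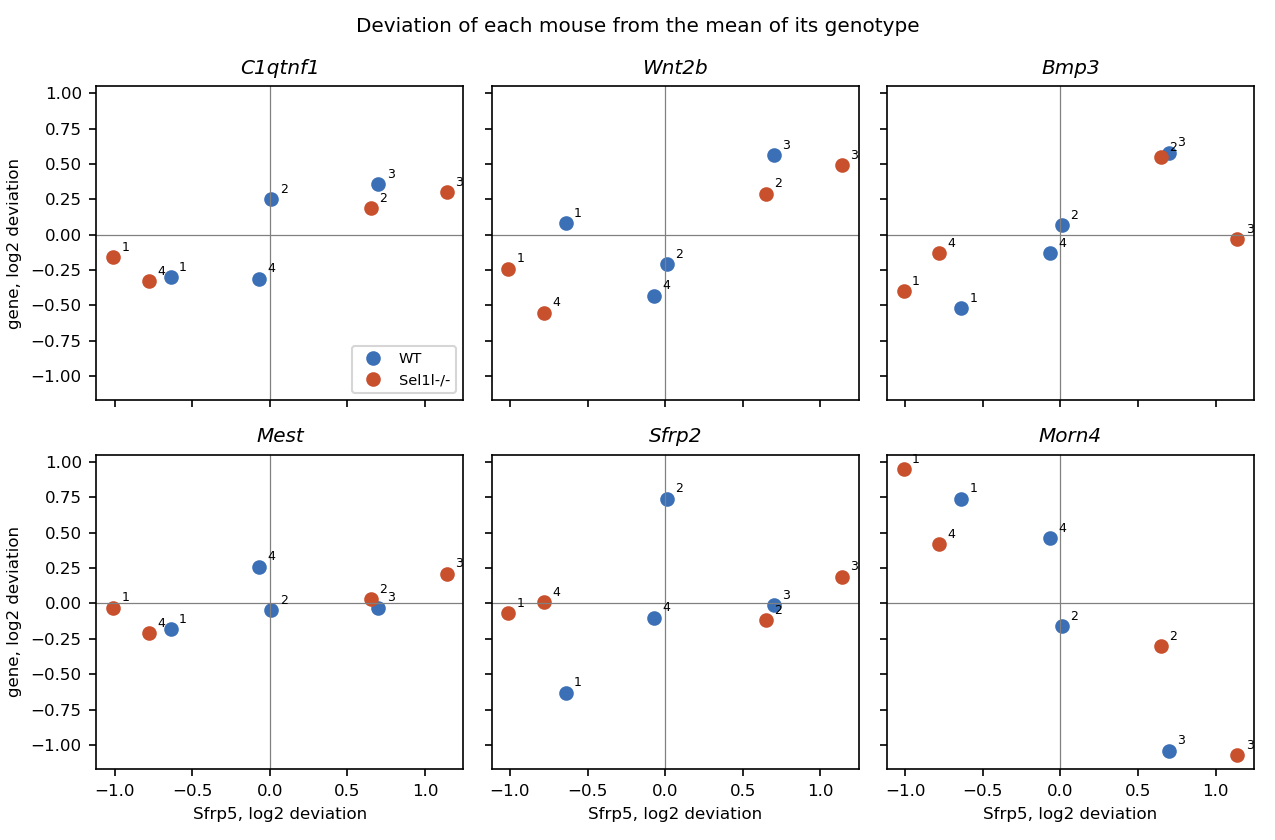
Deviation of each mouse from the mean of its genotype for Sfrp5 (horizontal) and 6 other genes (vertical), in log2 units, blue for WT and red for Sel1l-/-, with the mouse numbers. C1qtnf1 (r = 0.82), Wnt2b (0.78) and Bmp3 (0.73) rise with Sfrp5 and Mest less closely (0.59), Sfrp2 shows little relation (0.29), and Morn4 runs the opposite way (-0.93).

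The rest of the Wnt pathway was read from 7 lists of 114 genes, of which 110 were measured. None passed the threshold in limma, where 1.72% of all genes did. At an unadjusted p of 0.05, 17 were lower and 4 higher, where 7.85% of all genes were lower and 7.15% higher. Both directions together made 19.1% of the lists against 15.0% of all genes. The median difference of the 110 genes was -0.05.

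Ligands were mostly low in signal. Of 19 Wnt genes 13 had a negative difference, against 51.2% of all genes. None passed the threshold, 6 were lower at an unadjusted p of 0.05, against 7.85% of all genes, and 4 lay under the lower quartile on every array. The list median was -0.10. Wnt5a, the ligand for which Sfrp5 is best known, was at 8.41 ± 0.06 for WT and 8.30 ± 0.15 for Sel1l-/- (SD, n = 4 each; difference -0.11, standard error 0.08, limma adjusted p = 0.584). Wnt2b, which followed Sfrp5 within genotypes, had a difference of -0.34 (standard error 0.27, adjusted p = 0.631). For Wnt4 it was -0.42 (adjusted p = 0.259, and 0.0494 with replicate number blocked), and for Wnt16 -0.28 (adjusted p = 0.249). Wnt16 lay near the lower quartile, with means of 4.67 in WT and 4.39 in Sel1l-/- mice. Its difference is hard to tell from background. Among 7 agonists and secretion factors none passed the threshold. Of these, 3 had a negative and 4 a positive difference, and the list median was 0.03. The largest difference of the list was positive, that of Porcn at 0.69. Wls, which carries Wnt proteins to the surface, had a difference of -0.21 (standard error 0.06, adjusted p = 0.121), without overlap of the groups. Rspo1, an R-spondin that enhances Wnt signals, had one of -0.53 (adjusted p = 0.311).

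No receptor gene passed the threshold. Of 21 Frizzled, Lrp, Ror, Lgr and related genes, 15 had a negative difference and 4 were lower at an unadjusted p of 0.05, against 51.2% and 7.85% of all genes, with a median of -0.08. Fzd6, a Frizzled receptor, had a difference of -0.37 (standard error 0.10, adjusted p = 0.107) and Kremen1, a receptor for Dkk proteins, one of -0.23 (0.07, adjusted p = 0.174), both without overlap. Within the cell, none of 20 transduction genes passed. Tnks, a tankyrase that destabilises Axin, had a difference of 0.36 (standard error 0.08, adjusted p = 0.0616, but 0.0240 with array weights and 0.0243 without WT 4, and a difference of 0.15 with the code letter as a block), and Bcl9, a β-catenin coactivator, was at -0.27 (adjusted p = 0.160). Likewise none of 17 genes of the noncanonical branch passed, with Prickle2, a planar polarity gene, at -0.28 (adjusted p = 0.106) and Mapk9, which encodes JNK2, at -0.13 (adjusted p = 0.390).

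Among target genes of β-catenin, none of 14 measured passed the threshold, 9 differences were negative and 5 positive, and the median was -0.04. Ccn5, a matricellular protein, had the widest difference, at 1.31 (standard error 0.48, adjusted p = 0.247). It read 8.07, 8.77, 7.97 and 10.34 in WT and 9.64, 10.29, 10.13 and 10.32 in Sel1l-/- mice. The overlap came from WT 4 alone, and without that mouse the adjusted p was 0.0180. With the letter of the code as a block, which rests on WT 4, Sel1l-/- 1 and Sel1l-/- 2, the difference turned to -0.37 (adjusted p = 0.800). Nkd2, a feedback inhibitor, had a difference of -0.37 (adjusted p = 0.210).

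Of 12 further antagonists, none passed the threshold and the median was -0.05. Trabd2b, a membrane protease that inactivates Wnt proteins, read 10.19, 9.65, 9.17 and 9.30 in WT and 8.82, 8.80, 8.58 and 8.11 in Sel1l-/- mice, without overlap. Its difference was -1.0 (standard error 0.24, limma adjusted p = 0.0899), and it passed with the replicate number as a block (0.0234) and with array weights (0.0417). It did not pass with the code letter as a block, where the difference was -0.49 (0.733), with the code number (0.273) or without moderation (0.209). Dkk4 had a difference of -0.14 (adjusted p = 0.445) at low signal, with means of 4.83 in WT and 4.69 in Sel1l-/- mice.

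**Figure D4:**
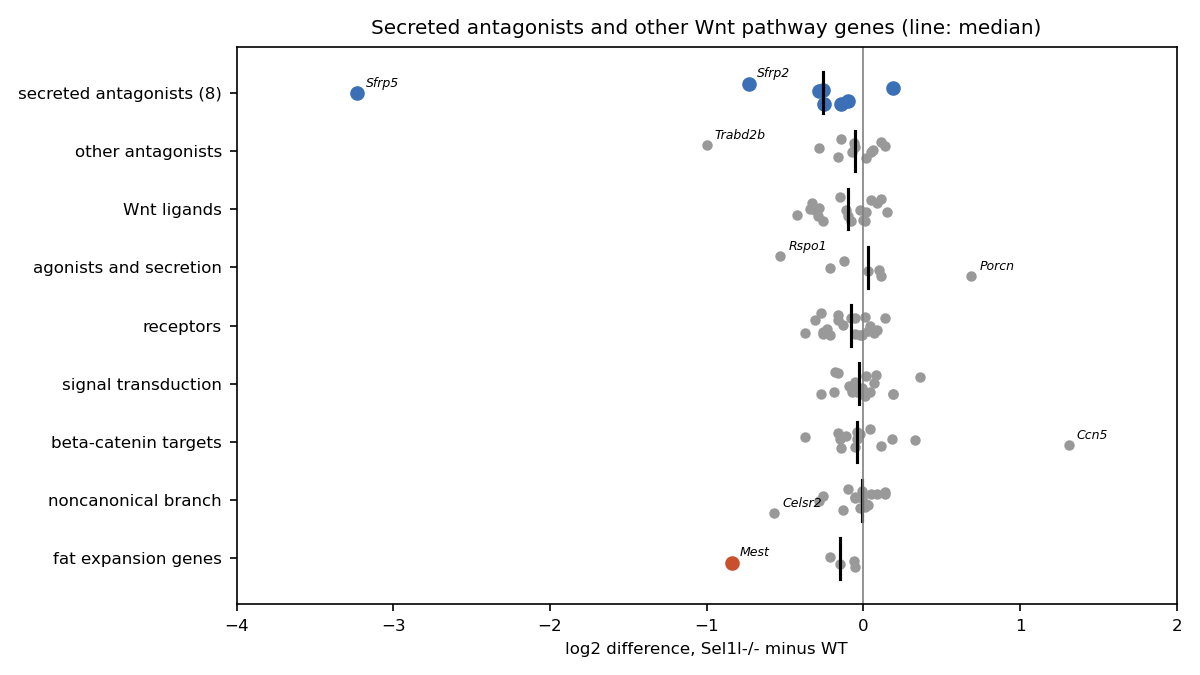
Log2 difference, Sel1l-/- minus WT, of the 8 antagonists (blue, described without a test) and of 8 lists of other genes (grey, or red where the limma adjusted p was under 0.05), each point 1 gene and each line the list median. Sfrp5 at -3.23 lies apart from all other points, Mest is the one red point, and names are given beyond 0.5 in either direction.

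Markers of the cell types that the tissue could hold were read from 9 lists. Of 73 marker genes measured, 2 passed the threshold, both lower, where 1.72% of all genes passed and 0.685% passed and were lower. These were Pecam1 of endothelial cells (log2 fold change -0.39, limma adjusted p = 0.0290) and Tagln of smooth muscle (-0.59, adjusted p = 0.0476). The Pecam1 call was lost whichever mouse was left out (adjusted p = 0.0503 to 0.102), and the Tagln call in 7 of 8 such fits (0.0271 to 0.150). All 9 endothelial markers were lower at an unadjusted p of 0.05, against 7.85% of all genes, with list means of 10.06 to 10.17 in WT and 9.56 to 9.88 in Sel1l-/- mice. All 9 macrophage markers had positive differences and none passed, with list means of 9.70 to 10.75 and 10.21 to 11.11. Adipoq, the hormone that marks adipocytes, was at 12.72 ± 0.15 for WT and 12.15 ± 0.24 for Sel1l-/- (SD, n = 4 each; difference -0.56, adjusted p = 0.0753, but 0.0204 with the replicate number as a block, and a difference of -0.29 with the code letter as a block). All 9 adipocyte markers had negative differences, against 51.2% of all genes, but the list median was -0.11. None of the 9 passed, and Adipoq was the 1 lower at an unadjusted p of 0.05. Pdgfra, the defining progenitor marker, had a difference of 0.23 (limma adjusted p = 0.582). In contrast, 8 of the 11 progenitor and fibroblast markers had negative differences, with a list median of -0.08. None of the 11 passed in limma, and 3 were lower and 0 higher at an unadjusted p of 0.05.

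Mesothelial markers, which come with visceral fat, had list means of 8.62 to 10.13 over the arrays. None of the 8 lay under the lower quartile on every array. Upk3b, the defining marker, was at 11.50 ± 0.33 for WT and 11.16 ± 0.38 for Sel1l-/- (SD, n = 4 each; difference -0.34, limma adjusted p = 0.531). Over the whole list the mean was 9.72, 9.28, 10.13 and 8.96 in WT and 9.15, 9.28, 9.45 and 8.62 in Sel1l-/- mice, so it was highest in mouse 3 of both genotypes, as Sfrp5 was. The list was lowest in mouse 4 of both genotypes, whereas Sfrp5 was lowest in mouse 1. Deviations of the list correlated with those of Sfrp5 at 0.53. Those of the lymphocyte list did so at 0.33, of the adipocyte list at 0.32 and of the smooth muscle list at -0.74. The skeletal muscle list, low in signal with list means of 5.01 to 5.20, was at -0.58. The remaining marker lists lay at -0.01 to 0.30. The part of these cells in the levels of Sfrp5 was not tested.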

How the data were processed

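RNA of 8 mice was hybridised to 1-colour arrays as biotin-labelled whole-transcript cDNA, per the labels' protocols. The authors deposited log2 intensities, a scale inferred from their range (1.72 to 13.9). RMA is the tool named per the submitters' processing notes. It forces probe intensities of the arrays to 1 distribution, which hides a shift shared by most genes and shrinks differences of dim probe sets. Medians of the deposited probe set values still differed, at 6.05 to 6.08 for WT and 6.10 to 6.14 for Sel1l-/- mice. The version of RMA and the array annotation's build are not given in the sources used here. No array was left out and no value was scaled further.

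Of 35556 probe sets, 21218 carried 1 gene symbol in the platform annotation, 1881 several and 12457 none. The brightest probe set of each gene over all arrays was used, which gave 18820 genes. Genotypes were compared with limma 3.58.1 (R 4.3.3, lmFit and eBayes, two-sided, Benjamini-Hochberg over all genes, threshold 0.05), which was checked on simulated data. Figures were drawn with Python 3.11.15 and matplotlib 3.10.9. With 4 arrays per group, array number sets the precision. The mice are separate animals per the labels.

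The genes of the set and all lists were chosen with earlier results of these data known. Named outside the set were Sel1l, Wnt5a, Mest, Bmp3, Adipoq, Pdgfra and Upk3b, up to 4 genes per Wnt list past the threshold or else the 2 with the smallest p, and the 10 highest and 5 lowest correlations with Sfrp5. The genes beside Sfrp5, Rnase2a, Fgf13, Opn3, Porcn, Pecam1, Tagln, Npr3, Cav1 and Cavin1 were named after their values were seen.

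Titles carry replicate numbers 1 to 4 in each genotype. Across genes, deviations of WT and Sel1l-/- mice of 1 number correlated at r = 0.518, 0.107, 0.363 and 0.524. Mice of unlike numbers ran from -0.489 to 0.328, and WT 2 with Sel1l-/- 4 (0.327) lay above the 0.107 of number 2. A pairing is thus not established, least so for number 2. Since each same-number r was over 0.1, the numbers were treated as a possible pairing and tried as a block. No label states what they share. Alternatives were this block, the letter and the number of the mouse code as blocks, centring of arrays, the mean over probe sets, array weights, no moderation, a filter on the dimmest 25% of genes, and leaving out each mouse.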

Additional observations from a re-analysis of the deposited data

Results flagged for a closer look

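Each group of 4 mice was checked for a mouse far from the others in the 8 antagonists and 29 further named genes, 74 groups in all, by Dixon's criterion, which chance meets in about 5% of groups. Of these, 1 met it. Fzd6 read 6.45 in Sel1l-/- 4, against 6.69 to 6.72 in the other Sel1l-/- mice.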

How the results depend on the processing

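The difference of Sfrp5 was negative in all 18 settings tried, and so was that of Sfrp2. For Sfrp5 this sign follows from groups that do not overlap, so it adds no support. The Sfrp5 difference was -3.61 to -2.89 when 1 mouse was left out, -1.73 within code number 5 and -4.14 within code number 7. The median of the other 7 antagonists was -0.33 to -0.09 when 1 mouse was left out. Of these 7, Sfrp4, Frzb, Dkk2, Sfrp1, Wif1 and Dkk3 changed sign in at least 1 setting. The 324 genes past the threshold became 725 with the replicate block, 20 and 11 with the letter and number of the mouse code as blocks, 566 with array weights, 124 without moderation, and 100 to 336 when 1 mouse was left out. With arrays centred on their medians, 119 were higher and 154 lower, against 195 and 129 as deposited. In the Wnt and fat expansion lists 1 gene passed, Mest. With the replicate block 3 did (Trabd2b, Wnt4 and Mest), with array weights 3 (Trabd2b, Tnks and Mest), with either code block or without moderation 0 in limma (14, 14 and 15 at an unadjusted p of 0.05), and 0 to 3 when 1 mouse was left out. The 2 marker genes became 9 with the replicate block, 4 with array weights, 0 with either code block or without moderation (4, 19 and 16 at an unadjusted p of 0.05), and 0 to 1 when 1 mouse was left out. In these alternative fits the share of all genes at an unadjusted p of 0.05 was not worked out. Nothing is thus read from the unadjusted counts of the lists. Of the 10 genes most like Sfrp5, 1 to 7 stayed among the 10 highest when 1 mouse was left out. Blocking on the code letter, which rests on 1 WT and 2 Sel1l-/- mice, turned the differences of Ccn5 (-0.37), Golga7b (0.43), R3hcc1l (0.03), Upk3b (0.04) and Wnt2b (0.12), none of them past the threshold, and took those of Wnt5a and Bmp3 to 0.0. Golga7b was -0.29 to 0.02 when 1 mouse was left out, and positive only without WT 2. Zfyve27, at -0.01, was 0.01 with the code number as a block and -0.04 to 0.02 when 1 mouse was left out. Among the 37 genes checked for an outlying mouse, the replicate block added the calls of Trabd2b, Wnt4, Adipoq and Morn4 and removed none. The causes of these moves were not tested. Frzb and Wif1 are limited by signal near background.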

Other observations

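Gdpd3, among the genes that ran most against Sfrp5 within genotypes, split the Sel1l-/- mice. It read 10.28, 10.28, 10.51 and 10.69 in WT mice. Sel1l-/- 1 and 4, the 2 mice with the least Sfrp5, read 10.24 and 10.64, close to the WT mice, while Sel1l-/- 2 and 3 read 6.55 and 6.22. This was noticed after the values were seen and no test was made. Tagln, the smooth muscle gene that was lower in Sel1l-/- mice, ran against Sfrp5 within genotypes (r = -0.94 over 8 mice, a description; its SD within genotypes of 0.18 kept it out of the genes searched).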
